A study of Mus musculus with 8 samples.

Results

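Metallothioneins and zinc transporters are described here as 7 genes chosen by name: the metallothionein genes Mt1, Mt2 and Mt3, the zinc-sensing transcription factor gene Mtf1, the zinc exporter genes Slc30a1 and Slc30a3, and the importer gene Slc39a14. All 7 were found, each as a single entry, among the 54532 genes of the deposited tables, and 6 passed the filter on low counts; Mt2 did not. RNA sequencing had been run on retinas of rd10 mice, which carry a Pde6b mutation that kills rods first and cones later; both groups share it, and each has 4 libraries. Libraries 2 to 5 of the first group, sIVs, take their name from the small intracellular vesicles of the series title, and libraries 1 to 4 of the other, PBS, from what is taken to be the saline buffer of that name. For neither group did the sources used here give age, sex, dose, route, vesicle source or sampling time. Titles and descriptions number the libraries as separate biosamples but do not tie them to animals, so the p-values rest on library-to-library spread, which may be technical.

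Metallothioneins are small, cysteine-rich proteins that bind zinc and copper and buffer free metal. Their genes are switched on by zinc through MTF1, which binds metal response elements in their promoters, and in mouse Mt1 and Mt2 are also induced by glucocorticoids and by interleukin-6 acting through STAT3. SLC30 proteins (ZnT) move zinc out of the cytosol and SLC39 proteins (ZIP) move it in. In the retina zinc is abundant in photoreceptors and pigment epithelium, and metallothionein is a known product of Müller glia.

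Total counts ran from 15039385 to 16989737 in sIVs libraries and from 14640235 to 15948291 in PBS libraries. The sIVs libraries 3 and 4 stood apart from the rest. The CPM (counts scaled to a common library size) of 11 rod markers summed to 39210, 8957, 8500 and 31630 across sIVs libraries 2 to 5, while PBS libraries lay between 34460 and 41720. In bulk tissue fewer cells of a type and less RNA per cell cannot be told apart. Member results are therefore also given without sIVs libraries 3 and 4. Those fits set only sIVs libraries 2 and 5 against the PBS libraries. Since the omitted libraries were picked for their own values, they are description.

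The coding sequences of the 3 metallothionein members are shown because cysteine content defines the family. They are given 5′ to 3′ from GENCODE M21 (GRCm38, chromosome 8, + strand), in lower case with cysteine codons in capitals.
Mt1: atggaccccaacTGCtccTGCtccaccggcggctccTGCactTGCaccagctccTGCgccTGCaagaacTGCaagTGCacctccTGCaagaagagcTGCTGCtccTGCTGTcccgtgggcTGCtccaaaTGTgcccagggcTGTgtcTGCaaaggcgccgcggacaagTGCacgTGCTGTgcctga
Mt2: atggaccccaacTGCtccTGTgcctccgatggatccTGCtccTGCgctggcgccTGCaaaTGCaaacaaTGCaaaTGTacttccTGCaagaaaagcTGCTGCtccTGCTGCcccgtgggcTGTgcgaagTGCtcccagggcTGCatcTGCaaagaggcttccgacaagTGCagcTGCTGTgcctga
Mt3: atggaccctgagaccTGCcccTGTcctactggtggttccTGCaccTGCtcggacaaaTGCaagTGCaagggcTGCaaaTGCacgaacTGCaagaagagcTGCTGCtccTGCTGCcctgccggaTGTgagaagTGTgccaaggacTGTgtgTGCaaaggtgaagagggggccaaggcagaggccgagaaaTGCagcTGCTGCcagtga
Each holds 20 cysteine codons, among 61 codons in Mt1 and Mt2 and 68 in Mt3. Mt1 and Mt2 were identical at 79.6% of 186 aligned bases, with no shared run longer than 20 bases. Mt1 and Mt3 were identical at 66.2% of 207 aligned columns.

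Promoter windows are shown for Mt1, Mt2 and Slc30a1, the members best known as MTF1 targets, and for Mt3. They run from 250 bases before to 50 bases after the RefSeq start (GRCm38.p6, + strand), and capitals mark metal response element cores, TGCACNC or TGCGCNC on either strand. The windows are chr8:94178839-94179138 for Mt1, chr8:94172368-94172667 for Mt2, chr8:94152357-94152656 for Mt3 and chr1:191906531-191906830 for Slc30a1.
Mt1 promoter: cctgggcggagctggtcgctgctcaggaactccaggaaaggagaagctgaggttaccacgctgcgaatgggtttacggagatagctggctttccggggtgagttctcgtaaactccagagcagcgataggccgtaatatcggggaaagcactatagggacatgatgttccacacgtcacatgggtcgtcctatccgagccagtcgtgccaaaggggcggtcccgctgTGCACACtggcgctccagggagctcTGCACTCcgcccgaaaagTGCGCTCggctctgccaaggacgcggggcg
Mt2 promoter: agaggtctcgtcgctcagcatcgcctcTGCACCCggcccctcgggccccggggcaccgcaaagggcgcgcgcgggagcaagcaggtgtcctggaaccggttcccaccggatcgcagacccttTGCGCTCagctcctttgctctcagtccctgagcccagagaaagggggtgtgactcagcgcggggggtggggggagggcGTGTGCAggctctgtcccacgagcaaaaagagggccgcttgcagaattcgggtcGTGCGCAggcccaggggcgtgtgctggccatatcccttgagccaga
Mt3 promoter: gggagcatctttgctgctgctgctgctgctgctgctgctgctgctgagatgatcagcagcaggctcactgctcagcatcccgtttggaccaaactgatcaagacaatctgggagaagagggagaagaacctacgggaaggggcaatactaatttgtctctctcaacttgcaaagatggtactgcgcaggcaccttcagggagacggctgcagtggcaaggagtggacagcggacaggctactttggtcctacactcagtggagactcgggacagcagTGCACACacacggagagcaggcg
Slc30a1 promoter: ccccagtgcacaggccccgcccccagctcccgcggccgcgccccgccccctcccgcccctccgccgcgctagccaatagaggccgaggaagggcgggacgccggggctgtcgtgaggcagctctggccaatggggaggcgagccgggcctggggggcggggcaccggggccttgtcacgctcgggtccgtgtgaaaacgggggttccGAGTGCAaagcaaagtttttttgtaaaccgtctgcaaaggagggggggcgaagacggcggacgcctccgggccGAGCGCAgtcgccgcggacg
The core matched 3 times in the Mt1 window, 4 times in Mt2, 2 times in Slc30a1 and 1 time in Mt3. The Mt1 matches began at bases -23, 3 and 21 relative to the RefSeq start. Only these 300 bases per start were searched, for this core and the motifs below, so sites outside them were not counted. The Slc30a3 gene has a pair of listed starts, with 1 and 0 matches, and Mtf1 had 0. Of 32841 promoter windows in the table, 25.7% held at least 1 match, 7.12% at least 2, 1.97% at least 3 and 0.518% at least 4. These windows are rich in G and C (56% in Mt3 to 73% in Slc30a1), and a match is a run of letters, not a shown binding site. Of 3 other motifs searched on both strands, the STAT site TTCNNNGAA was in none of the members' windows and in 8.3% of all. The antioxidant response element core TGACNNNGC matched 1 time each in Mt2 and Slc30a1 and in 12.4% of all windows, and overlapped no metal response core there. The glucocorticoid receptor core TGTTCT matched 1 time each in Mtf1 and Slc30a3 and in 19% of all windows. A promoter entry was held for 6 of the 7 members.

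The metallothionein gene Mt1 (ENSMUSG00000031765, chromosome 8, 94179082 to 94180327, GRCm38, + strand) showed the widest difference of the members tested. Its level was 262.5, 579.2, 649.9 and 479.6 CPM in sIVs libraries 2 to 5, against 212.8, 219.9, 162.4 and 89 CPM in PBS libraries 1 to 4. Every sIVs library stood above every PBS library, with sIVs library 2 the nearest to PBS and PBS library 4 the lowest of all. The means were 492.8 ± 168.7 CPM in sIVs and 171 ± 60.4 CPM in PBS (SD, n = 4 each). Their log2 fold change was 1.53 ± 0.32 (SE), or 2.88-fold. Mt1 did not pass edgeR's quasi-likelihood test with Benjamini-Hochberg adjustment over 17725 genes (adjusted p = 0.158), and no gene did: 0% were called, 2702 genes (15.2%) had an unadjusted p under 0.05, and DESeq2 called 536 genes. By unadjusted p, Mt1 had rank 95 of the genes tested.

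The Mt1 call depended on the test and on sIVs library 2. DESeq2 (adjusted p = 0.000279), edgeR with no filter on low counts (0.0263) and voom with sample weights (0.00175) put Mt1 past 0.05 with nearly the same log2 fold change, 1.52 to 1.70. Those settings called 3.02%, 0.45% and 28.1% of the genes they tested. Without sIVs library 2 the log2 fold change was 1.74 and Mt1 passed edgeR (adjusted p = 0.0115), among 1301 genes in all (7.34% of those tested). Over the 21 alternatives its adjusted p ran from 0.000279 to 0.42, and 4 put it past 0.05. Leaving out PBS library 4 gave the smallest log2 fold change of the single-library omissions, 1.31 (edgeR adjusted p = 0.394). Without sIVs libraries 3 and 4 the log2 fold change was 1.12 (edgeR adjusted p = 0.19), and both remaining sIVs libraries lay above all 4 PBS libraries.

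**Figure D1:**
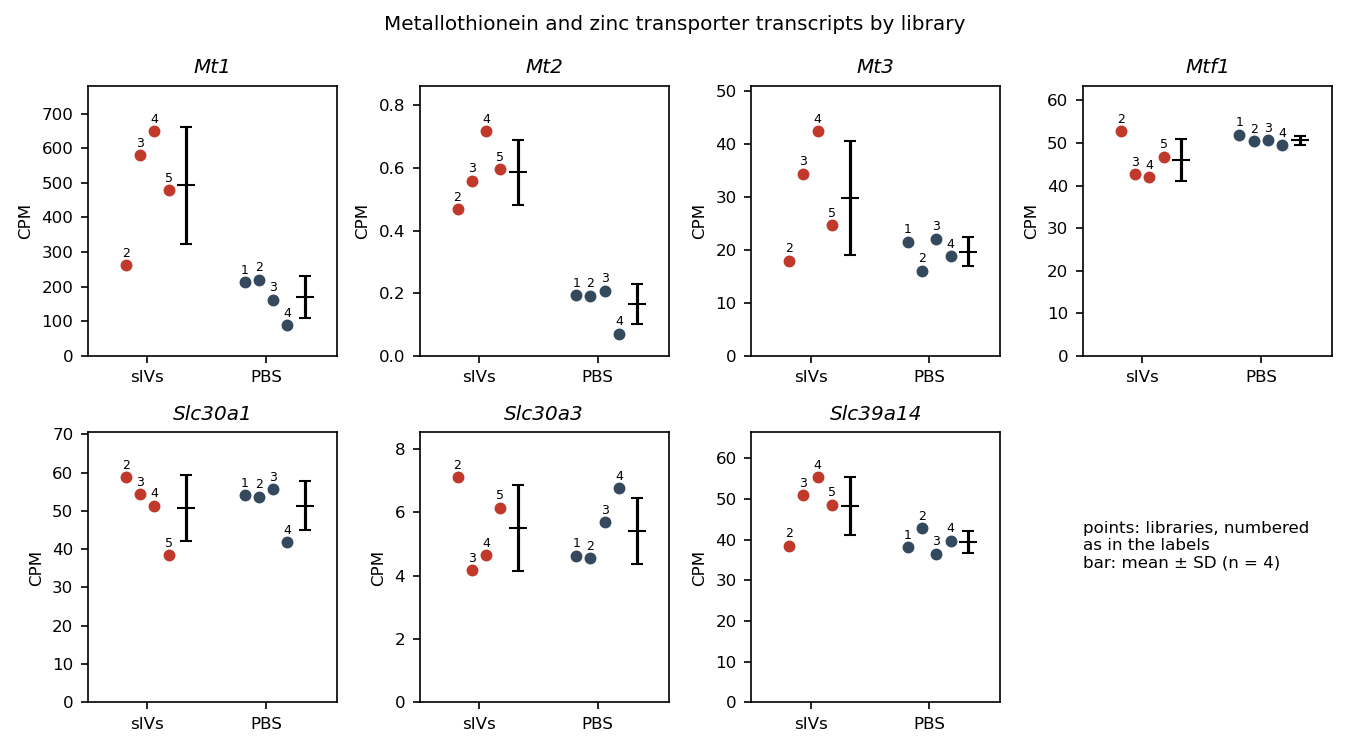
Level of each member in CPM (vertical axes, each from 0) in the sIVs and PBS libraries; points are libraries numbered as in the labels, and bars are the mean ± SD (n = 4). Mt1 and Mt2 are the panels in which the groups do not overlap, with Mt1 at 262.5 CPM or more in sIVs and 219.9 CPM or less in PBS.

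Mt1 was also set beside the markers of Müller glia, a known source of metallothionein in retina. The 12 Müller glia markers summed to 4845, 6516, 7051 and 3848 CPM in sIVs libraries 2 to 5, and to 5609, 5273, 6354 and 6674 CPM in PBS libraries 1 to 4. These groups overlapped, and none of the 12 markers was at 0 or passed the edgeR test after adjustment; 3 had an unadjusted p under 0.05 as higher (Vim, Crym and Sox9) and 1 as lower (Glul), beside 9.61% and 5.63% of all genes. As a percentage of that sum, Mt1 was 5.42, 8.89, 9.22 and 12.5% in sIVs libraries and 3.79, 4.17, 2.56 and 1.33% in PBS libraries. The percentages did not overlap between groups. The markers within the sum differed in direction, and no percentage was formed with any of them left out. Glul, the glutamine synthetase gene, made up 15.1 to 33.9% of the sum in sIVs and 35.7 to 40.7% in PBS, and every sIVs library lay below every PBS library for it (log2 fold change -0.96, edgeR adjusted p = 0.153). Vim, the vimentin gene, stood at 1.28 in log2 with every sIVs library above every PBS library (edgeR adjusted p = 0.148). Per length, Mt1 was 3.1, 3.06, 3.57 and 3.58 times Vim in sIVs libraries 2 to 5, and 2.98, 3.21, 2.82 and 2 times Vim in PBS libraries 1 to 4. These ratios to Vim overlapped between groups. Vim rose more than most of the list, whose median log2 fold change was 0.28. Ratios of Mt1 to the other single markers were not formed, so the overlap speaks for Vim only. Glul and Vim were singled out after their values were seen. Mt3 came to 0.37 to 0.642% of the sum in sIVs and 0.281 to 0.385% in PBS, and Slc39a14 to 0.782 to 1.26% in sIVs and 0.576 to 0.813% in PBS, with overlap in both. Summed astrocyte markers (7 genes, none at 0) ran from 780.9 to 1233 CPM in sIVs and from 704.8 to 851.2 CPM in PBS, and summed microglia and macrophage markers (12 genes, none at 0) from 148.9 to 508.3 CPM in sIVs and from 156.4 to 246.7 CPM in PBS. Their part in the Mt1 difference was not tested.

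The Mt2 gene (ENSMUSG00000031762, chromosome 8, 94172664 to 94173568) lies next to Mt1, 5513 bases upstream of it, and was counted at a very low level. Libraries 2 to 5 of sIVs held 7, 9, 13 and 10 counts, and PBS libraries 1 to 4 held 3, 3, 3 and 1. The groups did not overlap, but Mt2 did not pass the filter on low counts and has no test in the main analysis. Its summed counts were 39 in sIVs and 10 in PBS, a depth-adjusted ratio of 3.53 with an exact 95% interval of 1.73 to 7.92 that covers counting error only. Without sIVs libraries 3 and 4 the log2 ratio of mean CPM was 1.68. With no filter, edgeR gave Mt2 a log2 fold change of 1.76 (adjusted p = 0.151).

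The Mt2 counts are uncertain because an annotated antisense gene, Gm45774, covers most of the gene. In GENCODE M21, 432 of the 588 exon bases of Mt2 (73.5%) overlap the single exon of Gm45774 on the opposite strand, including 171 of the 183 coding bases before the stop codon, and 156 exon bases are free of it. Gm45774 itself had 3, 9, 6 and 8 counts in sIVs libraries and 3, 4, 2 and 4 in PBS libraries. The libraries were strand-marked per the labels, but the strand setting of the counting was not given in the sources used here; without strand, reads of Mt2 and Gm45774 cannot be told apart. In raw counts Mt1 exceeded Mt2 by 560 to 1040 times in sIVs and by 780 to 1250 times in PBS. The Mt1 and Mt3 exons overlap no annotated exon on the other strand.

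**Figure D2:**
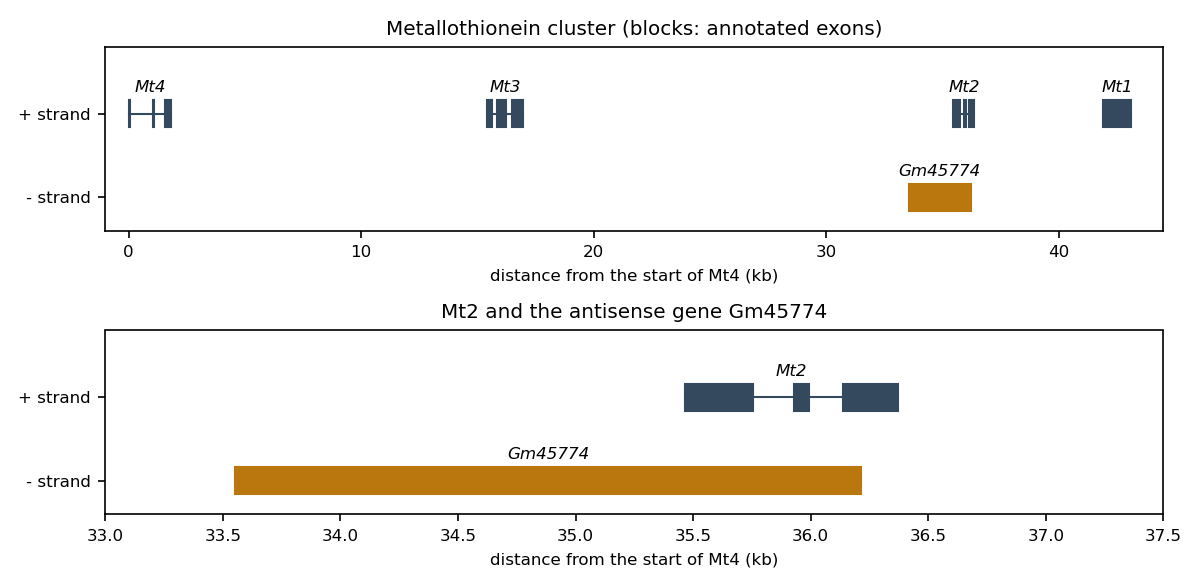
Annotated exons of the metallothionein cluster, merged over all transcripts of a gene (blocks), by distance in kb from the start of Mt4 (horizontal axis). Genes on the + strand lie above and on the - strand below, and the lower panel enlarges Mt2. The exon of the antisense gene Gm45774 covers 432 of the 588 exon bases of Mt2, and no exon of Mt1, Mt3 or Mt4.

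Mt3 (ENSMUSG00000031760, chromosome 8, 94152607 to 94154146) encodes the metallothionein of neurons and brain, which inhibits neurite growth. Its level was 17.9, 34.4, 42.4 and 24.7 CPM in sIVs libraries 2 to 5, against 21.6, 16.1, 22.1 and 18.8 CPM in PBS libraries 1 to 4. In 3 sIVs libraries it stood above every PBS library, and sIVs library 2 lay within the PBS range. The log2 fold change was 0.61 ± 0.24 (SE, edgeR adjusted p = 0.281). Without sIVs libraries 3 and 4 it was 0.12 (adjusted p = 0.786), and without library 2 it was 0.78 (edgeR adjusted p = 0.0362). Leaving out library 2 put 7.34% of all genes tested past the threshold. The Mt3 values of libraries 3 and 4 go with their lower rod marker sums, and that relation was not tested. On the per-length scale the Mt1 level was 12.5 to 16.6 times that of Mt3 in sIVs libraries and 4.05 to 11.7 times in PBS libraries.

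The fourth gene of the cluster, Mt4, the metallothionein of stratified epithelium, had 0 counts in all 8 libraries, which allows at most 0.166 to 0.213 CPM in a library (3 counts, counting error only). Of the 8 other annotated genes within 100 kb of the cluster, 4 were tested and ranged in log2 fold change from -0.31 to 0.15. The lowest was Bbs2, a ciliary gene, at -0.31 (edgeR adjusted p = 0.461), and the highest Nup93, a nuclear pore gene, at 0.15 (adjusted p = 0.433). Bbs2 stood at 105.5, 62.3, 55.6 and 99 CPM in sIVs libraries 2 to 5, with libraries 3 and 4 far below the PBS range of 97.2 to 103.2 CPM. Nup93 stood at 28.9, 33.9, 31.3 and 33.1 CPM in sIVs libraries 2 to 5, and only library 2 lay within the PBS range of 25.4 to 30.7 CPM.

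Mtf1 (ENSMUSG00000028890, chromosome 4, 124802104 to 124849800), the zinc sensor itself, stood at 52.8, 42.8, 42 and 46.8 CPM in sIVs libraries 2 to 5, against 52, 50.4, 50.7 and 49.5 CPM in PBS libraries 1 to 4. In 3 sIVs libraries it lay below every PBS library, and in sIVs library 2 above them all. PBS libraries varied little, with a coefficient of variation of 2.04%, against 10.8% in sIVs. The log2 fold change was -0.14 ± 0.08 (SE, edgeR adjusted p = 0.455). Leaving out sIVs libraries 3 and 4 gave -0.03 (adjusted p = 0.92), and leaving out library 2 gave -0.21.

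Slc30a1 (ENSMUSG00000037434, chromosome 1, 191906767 to 191913247) encodes ZnT1, the plasma membrane zinc exporter and, like Mt1, a classical MTF1 target. It stood at 58.7, 54.4, 51.3 and 38.5 CPM in sIVs libraries 2 to 5, against 54, 53.7, 55.7 and 41.8 CPM in PBS libraries 1 to 4. The groups overlapped, with library 5 lowest in sIVs and library 4, also lowest for Mt1, lowest in PBS. The log2 fold change was -0.02 ± 0.14 (SE, edgeR adjusted p = 0.967), and its sign depended on the scaling, being 0.059 by library totals. Without sIVs libraries 3 and 4 it was -0.08 (adjusted p = 0.853). Set per length, Mt1 was 18.8, 44.8, 53.3 and 52.4 times Slc30a1 in sIVs libraries and 16.6, 17.2, 12.3 and 8.95 times in PBS libraries. The ratio did not overlap between groups, which already held for Mt1 alone, and the groups came nearest in library 2 of each.

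Slc30a3 (ENSMUSG00000029151, chromosome 5, 31086106 to 31108237) encodes ZnT3, which loads zinc into synaptic vesicles. It stood at 7.1, 4.16, 4.64 and 6.15 CPM in sIVs libraries 2 to 5, against 4.64, 4.55, 5.69 and 6.76 CPM in PBS libraries 1 to 4. Highest and lowest values both lay in sIVs, in libraries 2 and 3. The log2 fold change was 0.03 ± 0.21 (SE, edgeR adjusted p = 0.97). Leaving out sIVs libraries 3 and 4 gave 0.29 (adjusted p = 0.57).

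Slc39a14 (ENSMUSG00000022094, chromosome 14, 70303469 to 70351425) encodes ZIP14, an importer of zinc, iron and manganese that interleukin-6 induces in mouse liver. It stood at 38.6, 51, 55.3 and 48.6 CPM in sIVs libraries 2 to 5, against 38.2, 42.8, 36.6 and 39.8 CPM in PBS libraries 1 to 4. In 3 sIVs libraries it lay above every PBS library, and in sIVs library 2 within the PBS range. The log2 fold change was 0.30 ± 0.11 (SE, 1.23-fold, edgeR adjusted p = 0.264). Without sIVs library 2 it was 0.39 (adjusted p = 0.0248) and without libraries 3 and 4 it was 0.15 (edgeR adjusted p = 0.573). Leaving out library 2 put 7.34% of all genes tested past the threshold.

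Over the 6 members tested, 0 passed the adjusted threshold. With an unadjusted edgeR p under 0.05, 3 were higher in sIVs (Mt1, Mt3 and Slc39a14), beside 9.61% of all genes tested, and 0 were lower, beside 5.63%. In 1 of the 6, Mt1, every sIVs library lay above every PBS library, as in 4.42% of all genes tested; in 0 did every sIVs library lie below, as in 3.36%. Groups did not overlap in either direction for 7.79% of all genes. The median log2 fold change was 0.16 over the 6 members and -0.01 over all genes.

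Levels per length, as deposited FPKM (fragments scaled to gene length and library total), spanned a wide range. For Mt1 the length used was 1246 bases, its whole gene interval, and its FPKM and per-length ratios depend on that length. In sIVs libraries the mean FPKM was 394.3 ± 134.3 for Mt1, 27.9 ± 10 for Mt3, 9.65 ± 1.67 for Slc30a1, 5.16 ± 0.57 for Mtf1, 4.57 ± 0.661 for Slc39a14, 1.94 ± 0.481 for Slc30a3 and 0.993 ± 0.174 for Mt2 (SD, n = 4). In PBS libraries it was 136.9 ± 48.6 for Mt1, 18.4 ± 2.63 for Mt3, 9.76 ± 1.24 for Slc30a1, 5.66 ± 0.132 for Mtf1, 3.72 ± 0.248 for Slc39a14, 1.90 ± 0.359 for Slc30a3 and 0.282 ± 0.109 for Mt2. The order was thus the same in both groups. In PBS no neighbours in it overlapped, while in sIVs Mtf1 (4.70 to 5.94 FPKM) and Slc39a14 (3.66 to 5.22 FPKM) overlapped, and Slc39a14 exceeded Mtf1 in libraries 3 and 4. By mean FPKM among all 54532 genes, Mt1 had rank 28 in sIVs and rank 180 in PBS.

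**Figure D3:**
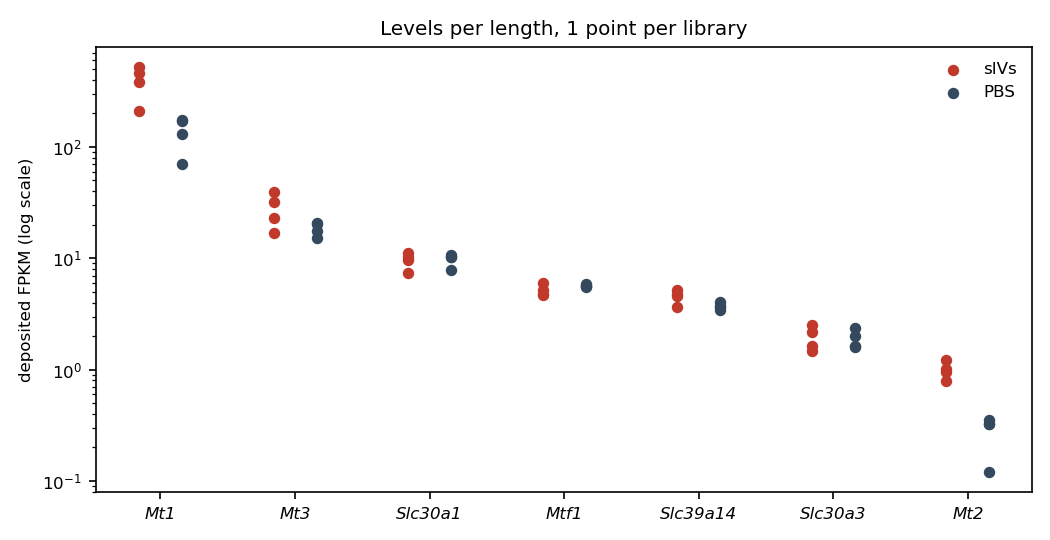
Deposited FPKM of each member on a log axis, 1 point per library, with sIVs left of PBS for each gene and genes ordered by PBS mean. Mt1 lies highest in every library, from 211 to 519.8 FPKM in sIVs and from 70.8 to 176 FPKM in PBS.

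The other zinc transporter genes were taken as lists. Of the 8 other SLC30 genes, 7 were tested; 0 passed after adjustment, 0 had an unadjusted p under 0.05, and their log2 fold changes ran from -0.15 to 0.12 with a median of 0.03. Slc30a7, a Golgi ZnT gene, had the smallest p (0.10 ± 0.07 SE, edgeR adjusted p = 0.519), followed by Slc30a10, a manganese exporter gene (0.12 ± 0.22 SE, adjusted p = 0.826). The untested one, Slc30a8, encodes the zinc transporter of insulin granules.

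All 13 other SLC39 genes were tested, with log2 fold changes from -0.21 to 0.70 and a median of 0.09, and 0 passed after adjustment. At an unadjusted p under 0.05, 1 was higher and 1 lower, beside 9.61% and 5.63% of all genes. The higher one was Slc39a1, which encodes the plasma membrane importer ZIP1. It stood at 81.6 CPM in sIVs and 50.2 CPM in PBS on average, with every sIVs library above every PBS library (0.70 ± 0.19 SE in log2, edgeR adjusted p = 0.178). Leaving out sIVs libraries 3 and 4 gave 0.29. The lower one was Slc39a3, the importer ZIP3, at 118.5 CPM in sIVs and 130.9 CPM in PBS (-0.14 ± 0.06 SE, edgeR adjusted p = 0.314), with every sIVs library below every PBS library.

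**Figure D4:**
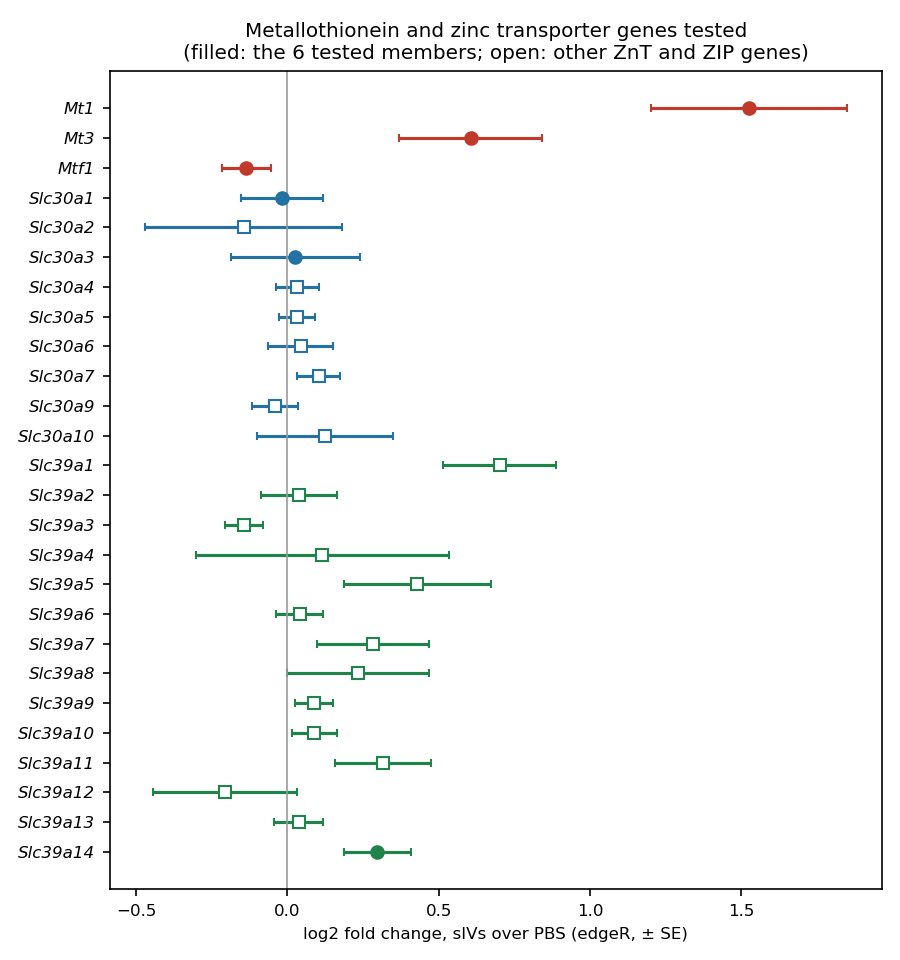
Log2 fold change of sIVs over PBS with its SE (horizontal axis) for the tested metallothionein, Mtf1, SLC30 and SLC39 genes; filled circles are the 6 tested members and open squares the other transporter genes. Mt1 stands at 1.53, Slc39a1 at 0.70 and Mt3 at 0.61, while the 7 other SLC30 genes lie between -0.15 and 0.12.

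Genes linked with MTF1 in earlier work, 10 in all, had a median log2 fold change of 0.21 (0.13 without sIVs libraries 3 and 4), with 0 past the adjusted threshold and 5 higher and 0 lower at an unadjusted p under 0.05, beside 9.61% and 5.63% of all genes. Csrp1, a LIM domain protein gene, had the smallest p (0.58 ± 0.18 SE, edgeR adjusted p = 0.205), and every sIVs library lay above every PBS library; without sIVs libraries 3 and 4 its log2 fold change was 0.18. Gclc, the catalytic subunit gene of glutathione synthesis, followed at 0.20 ± 0.08 (SE, edgeR adjusted p = 0.266). The list medians relative to the PBS mean on the log2 scale were 0.09, 0.17, 0.27 and 0.20 for sIVs libraries 2 to 5, and 0.03, -0.03, 0.05 and -0.13 for PBS libraries 1 to 4.

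Genes of interleukin-6 and STAT3 signalling and response had a median log2 fold change of 1.36 over the 12 tested of 14. None passed the adjusted threshold, 11 were higher at an unadjusted p under 0.05, and in 8 every sIVs library lay above every PBS library, beside 9.61% and 4.42% of all genes. The list was chosen with earlier results of these data known, so these counts are description and not support. Il6 and Osm, the untested genes, did not pass the filter on low counts. Without sIVs libraries 3 and 4 the median was 0.86. By library, its median against the PBS mean was 0.55, 1.66, 1.58 and 1.00 for sIVs libraries 2 to 5, and 0.35, 0.32, -0.11 and -0.64 for PBS libraries 1 to 4. Mt1 on the same log2 scale stood at 0.62, 1.76, 1.93 and 1.49 in sIVs libraries 2 to 5, and PBS library 4 was lowest for both. Osmr, the oncostatin M receptor gene, stood at 66.4 CPM in sIVs and 26.6 CPM in PBS (edgeR adjusted p = 0.161; 1.32 in log2, and 0.71 without sIVs libraries 3 and 4). Socs3, the feedback inhibitor gene of this pathway, stood at 84.8 CPM in sIVs and 25.4 CPM in PBS (edgeR adjusted p = 0.167). The part of these genes in the Mt1 difference was not tested.

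**Figure D5:**
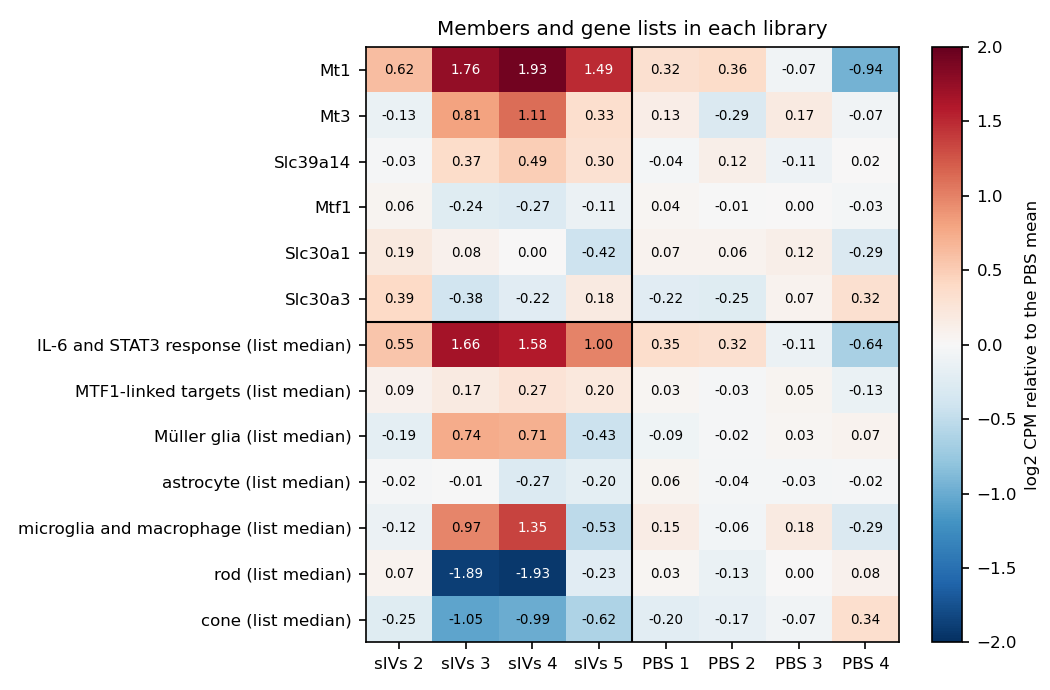
Log2 CPM relative to the PBS mean (colour and printed values) in each library for the 6 tested members (upper rows) and as the median of each gene list (lower rows), with sIVs libraries left of PBS libraries. Mt1 stands at 0.62, 1.76, 1.93 and 1.49 in sIVs libraries 2 to 5, where the rod list is at 0.07, -1.89, -1.93 and -0.23.

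Among 14165 other protein-coding genes, the 3 whose log2 CPM followed each member most closely over the 8 libraries were taken as a description. The points share library composition, and sIVs libraries 3 and 4, which stood apart, are among them. For Mt1 they were S100a6, a calcium-binding protein gene (Pearson r = 0.998), Sat1, the polyamine acetyltransferase gene (r = 0.991), and Plp2 (r = 0.991). S100a6 stood at 58.5, 161, 177 and 109 CPM in sIVs libraries 2 to 5 and 44.2, 43.5, 29.1 and 13 CPM in PBS libraries 1 to 4, the same rank order as Mt1 but for PBS libraries 1 and 2. For Mt3 they were Pold4, a DNA polymerase delta subunit gene (r = 0.989), Fth1, the ferritin heavy chain gene (r = 0.987), and Coro1a, a leukocyte actin-binding gene (r = 0.984). For Slc39a14 they were Csf2rb, a cytokine receptor subunit gene (r = 0.985), Rhoa, a small GTPase gene (r = 0.984), and 1110008P14Rik (r = 0.982). For Mtf1, r was 0.985 to 0.992 (Asrgl1, Hltf and Ints13), for Slc30a1 0.936 to 0.955 (Serinc5, Tmem29 and Efcab1) and for Slc30a3 0.932 to 0.97 (Wipf2, Epc2 and Mettl25). Between members, r was 0.846 for Mt1 and Slc39a14, 0.769 for Mt1 and Mt3, and 0.0559 for Mt1 and Slc30a1.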

How the data were processed

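Gene expression was measured in 8 retina libraries. Per the labels' protocols, poly(A) RNA from a TRIzol extract went into strand-marked paired-end libraries. The submitters' processing notes name the mm10 build; for the aligner, counting program, annotation release and strand setting, the sources used here name none. The authors deposited unnormalised counts per gene and a table of FPKM values; FPKM equalled count per length and library total times a constant per library of 0.93 to 1.03. Gene intervals of all members equal those in GENCODE M21.

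For the counts, edgeR 4.0.16 under R 4.3.3 was used (filterByExpr, TMM scaling, quasi-likelihood test, group as the only term, Benjamini-Hochberg adjustment over 17725 genes, threshold 0.05), checked on simulated counts. CPM is at TMM-adjusted library size, and SE comes from the F statistic. Library totals of 14640235 to 16989737 counts set the precision. No library pair of a group agreed within sampling noise (chi-square per gene at least 3.85).

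Named genes were the members, the 2 genes of smallest p in each pathway list, and the 3 genes most like each member. Also named were Mt4, Gm45774, the highest and lowest tested neighbours of the cluster, and some untested genes of the lists. The Müller glia markers Vim, Crym, Sox9 and Glul were named for their values. Members and lists were chosen with earlier results of these data known, so their counts beside the shares of all genes are description and not support. Alternatives were DESeq2 1.42.0, limma 3.58.1 (voom, and log2 FPKM), other scalings and filters, libraries left out and replicate blocks.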

Additional observations from a re-analysis of the deposited data

Results flagged for a closer look

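Of 42 groups of 4 libraries examined (the 7 members and the 14 named pathway genes, each in sIVs and in PBS), 5 held a library far from the other 3 by Dixon's test, which chance gives in about 1 of 20 groups. All 5 lay in PBS. The test looks for 1 library apart from 3, so it can miss a group in which a pair stands apart, as sIVs libraries 3 and 4 did. The edgeR coefficient of variation between libraries was wider in sIVs (22.3%) than in PBS (8.83%). Mt2 was at 0.0712 CPM in PBS library 4, which is 1 count, against 0.192 to 0.208 CPM in the others. Slc30a1 was at 41.8 CPM in PBS library 4, against 53.7 to 55.7 CPM. Slc17a6, a vesicular glutamate transporter gene, was at 119.5 CPM in PBS library 4, against 94.3 to 96.2 CPM. Gclc was at 54.7 CPM in PBS library 3, against 46.7 to 47.2 CPM. Slc39a3 was at 126.9 CPM in PBS library 2, against 131.8 to 132.8 CPM.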

How the results depend on the processing

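No alternative turned the sign of Mt1, Mt3, Mtf1 or Slc39a14 over the 21 run for each. Without a library in turn, log2 fold changes ran from 1.31 to 1.74 for Mt1, 0.39 to 0.78 for Mt3, 0.23 to 0.39 for Slc39a14, -0.21 to -0.095 for Mtf1 (-0.21 without sIVs library 2), -0.10 to 0.093 for Slc30a1, -0.12 to 0.15 for Slc30a3 and -0.066 to 0.27 for Slc30a10. Mt1 passed with DESeq2 (1.53), voom with sample weights (1.70) and no filter (1.52). Sample weights also put Mt3 (0.79), Slc39a14 (0.40) and Mtf1 (-0.23) past the threshold, along with 28.1% of all genes tested. Slc30a1 turned positive by library totals (0.059), which moved the median of all genes to 0.07. It also turned positive with the title numbers as a block (0.13), where sIVs library 5 and PBS library 1 had no partner. Slc30a3 turned negative with sample weights (-0.18) and with that block (-0.12), and Slc30a10 without sIVs libraries 3 and 4 (-0.35). The genes called numbered 0 in the main analysis, 536 with DESeq2, 4973 with sample weights, 152 with no filter, 3 without sIVs libraries 3 and 4, 11 at a threshold of 0.1, and 0 to 1301 without a library in turn (1301 without sIVs library 2, 0 without any other). The cause was not tested. A test of sIVs libraries 3 and 4 alone was planned and not run, since they were picked for their values.

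The labels do not say that the replicate numbers pair the libraries. Correlations of same-numbered libraries ran from -0.06 to 0.05 by title and from -0.07 to 0.10 by description. Among them, 1 description pair and no title pair correlated best with its own number. So few pairs cannot show whether same-numbered libraries shared an animal or batch. With title and description numbers as replicate blocks Mt1 stood at 1.66 and 1.54 (edgeR adjusted p = 0.376 and 0.253), and 0 genes were called by either. By title, sIVs library 5 and PBS library 1 have no same-numbered partner. The title block fit therefore compares only libraries 2 to 4 of each group.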

Other observations

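Copper handling genes, which metallothioneins also serve, had values on both sides of 0, from -0.54 to 1.56 in log2 fold change. Of 13 tested, 0 passed after adjustment, and 3 were higher and 0 lower at an unadjusted p under 0.05, beside 9.61% and 5.63% of all genes. Their median log2 fold change was 0.05, and -0.043 without sIVs libraries 3 and 4. Cp, the ceruloplasmin gene, stood at 702.5 CPM in sIVs and 387.0 CPM in PBS on average (0.86 ± 0.28 SE, edgeR adjusted p = 0.226), and Steap4, a metalloreductase gene, at 23 CPM in sIVs and 7.79 CPM in PBS (1.56 ± 0.51 SE, adjusted p = 0.226). Without those libraries Cp was at 0.26 and Steap4 at 0.53. Glucocorticoid response genes, another known input to Mt1, had a median of -0.10 over 12 tested, with 1 higher and 3 lower at an unadjusted p under 0.05, beside 9.61% and 5.63% of all genes; without sIVs libraries 3 and 4 the median was -0.064. Zbtb16 was at -0.67 ± 0.20 and Cebpd at 1.12 ± 0.39 (SE, edgeR adjusted p = 0.196 and 0.243). Genes of glutamatergic synapses, which ZnT3 serves, had a median of -0.11 over 10 tested, with 0 under 0.05; without sIVs libraries 3 and 4 it was -0.073. Grin2a, a glutamate receptor gene, was at -0.23 ± 0.11 and Slc17a6 at -0.19 ± 0.10 (SE, edgeR adjusted p = 0.367 and 0.391).

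Of the 100 protein-coding genes with 70% or more of their exon bases under an annotated exon on the opposite strand, 75% had a mean below 10 counts, against 39.3% of 16640 with no such overlap. At 50% or more overlapped, the share was 52.8% of 214 genes. Other properties of these genes were not compared. Among the other members, 8.09% of Mtf1 and 8.92% of Slc30a1 exon bases were so overlapped.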
